A study of Mus musculus with 6 samples.

Results

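The 40 voltage-gated sodium and calcium channel genes were taken by their symbols from the 21006 genes of the counts table, as every Scn gene with a number and the letter a or b, and every Cacna, Cacnb or Cacng gene with a number. They divide into 20 pore-forming genes, which are the 10 sodium channel α genes and the 10 calcium channel α1 genes, and 20 auxiliary genes. The auxiliary genes are 4 sodium channel β, 4 calcium channel α2δ, 4 calcium channel β and 8 calcium channel γ genes. RNA came from branchial arches of mouse embryos at E11.5, the paired swellings that build the jaws, ears and throat. The cells had been sorted for TdTomato, a red reporter made from the Rosa26 locus after Wnt1-cre recombination, so that the sort takes descendants of Wnt1-expressing cells and a bulk library averages over them. The 3 DKO (double knockout) libraries were Ehmt1f/f and Ehmt2f/f, and the 3 control libraries were Ehmt1+/+ and Ehmt2+/+. All 6 carried Wnt1-cre and Rosa26 TdTomato/+, so the controls had Cre as well. The samples are labelled as biological replicates with no word on pooling or litters, and the p-values measure the spread between these libraries, which may be partly technical.

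Voltage-gated sodium channels open on depolarization and carry the rising phase of the action potential, and voltage-gated calcium channels turn depolarization into calcium entry for secretion, contraction and gene regulation. Each channel is built around 1 large pore-forming α or α1 subunit, and auxiliary subunits set how many channels reach the membrane and how they gate. Calcium channel α1 genes fall into L-type channels of muscle and neurons, P/Q-, N- and R-type channels of nerve endings, and T-type channels, which open at weak depolarization. Ehmt1 and Ehmt2 encode GLP and G9a, which together place mono- and dimethyl marks on lysine 9 of histone H3, a mark of repressed chromatin.

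Total counts lay between 23414466 and 44538260 per library, and the channel genes took 0.0979% to 0.148% of them. Levels are given as CPM after TMM scaling of the library totals, and a gene was called at an edgeR quasi-likelihood adjusted p below 0.05 over the 14555 tested genes, 2-sided. Ehmt2 and Ehmt1 were lower in DKO by 1.47 (SE 0.08) and 0.81 (SE 0.10) on the log2 scale, with edgeR adjusted p of 0.000208 and 0.00476, the direction the labels give. The counts also take in exons that Cre does not remove, so they are no measure of intact transcript. The 12 markers of arch crest mesenchyme summed to 1875 to 2392 CPM in DKO and 2150 to 2597 CPM in control libraries. The 15 neuron markers were also well detected, with sums of 1522 to 1697 CPM and 1650 to 2048 CPM. In bulk RNA, fewer cells of a type and less RNA per cell cannot be told apart.

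The most abundant channel genes in arch neural crest were 2 T-type calcium channel genes and a few auxiliary genes, in both genotypes. Levels of different genes are compared per kb of exons, the union of all exons in GENCODE M21. Cacna1g, a T-type pore gene, stood at 34.2 CPM per kb in control and 31.5 CPM per kb in DKO libraries, and Cacna1h, another T-type gene, at 12.0 and 14.0 CPM per kb. The T-type genes together held 80.6% ± 0.556 of the summed calcium α1 level per kb in control libraries and 78.0% ± 2.31 in DKO libraries (SD, n = 3 each). The most abundant auxiliary genes were Cacng7, at 46.1 and 45.8 CPM per kb, Cacnb3, at 27.4 and 23.7, and Cacng4, at 21.6 and 18.03, each in control and then DKO libraries. Cacng7 and Cacng4 belong to the γ subunits that also act as partners of AMPA-type glutamate receptors, and Cacnb3 is a cytoplasmic β subunit that helps channels to the membrane. Sodium channel α genes were lower. Scn8a led them with 1.96 CPM per kb in control and 3.68 CPM per kb in DKO libraries.

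**Figure D1:**
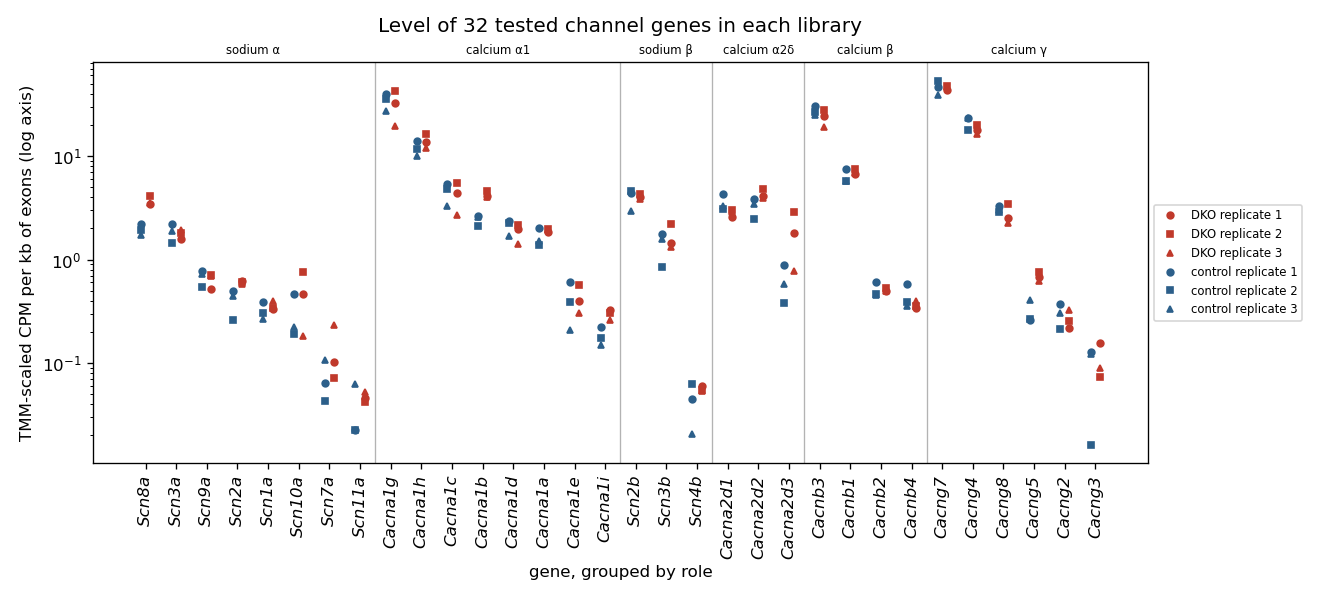
Level of 32 of the 34 tested channel genes in each of the 6 libraries, as TMM-scaled CPM per kb of exons on a log axis, with control libraries in blue and DKO libraries in red and genes grouped by role. Cacna1g, Cacnb3, Cacng7 and Cacng4 sit highest, and the 2 colours separate for Scn8a and Cacna1b while they overlap for most other genes.

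DKO libraries had more RNA of 2 pore-forming genes, Scn8a and Cacna1b, and no channel gene was called lower. Of the 40 channel genes, 34 passed the filter on low counts, 17 pore-forming and 17 auxiliary. Of these 34, 2 were called higher (5.88%) and 0 lower, where the whole table had 2.19% of tested genes called higher and 0.818% called lower. A count this small does not set the channels apart from other genes. Both calls were pore-forming genes, 2 of 17, against 0 of 17 auxiliary genes. Whether pore-forming and auxiliary genes differ was not tested. At an unadjusted p below 0.05, 4 pore-forming genes were higher and 0 lower, and 3 auxiliary genes were higher and 1 lower, where 11% of all tested genes were higher and 9.89% lower by that rule. DESeq2 called 3 channel genes higher and 0 lower, with Cacng5 as its 1 auxiliary gene, beside 4.29% and 3.31% of all genes. Scaling by library size only gave the same counts, beside 2.86% and 0.55%. With limma-voom 2 were higher and 0 lower, beside 1.96% and 0.715%, and a test against a 1.5-fold change called 0 in either direction, beside 0.715% and 0.124%. The median log2 fold change, DKO over control, was 0.22 over the pore-forming and 0.02 over the auxiliary genes, and -0.01 over all tested genes. Groups did not overlap for 6 channel genes that were higher and 1 that was lower in DKO, where 14.5% and 12.7% of all tested genes separated in those directions. Without DKO replicate 3 the number called higher was 4 in place of 2, with Cacna2d3 and Cacng5 added, and 4.09% of all genes were then called higher and 3.49% lower.

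**Figure D2:**
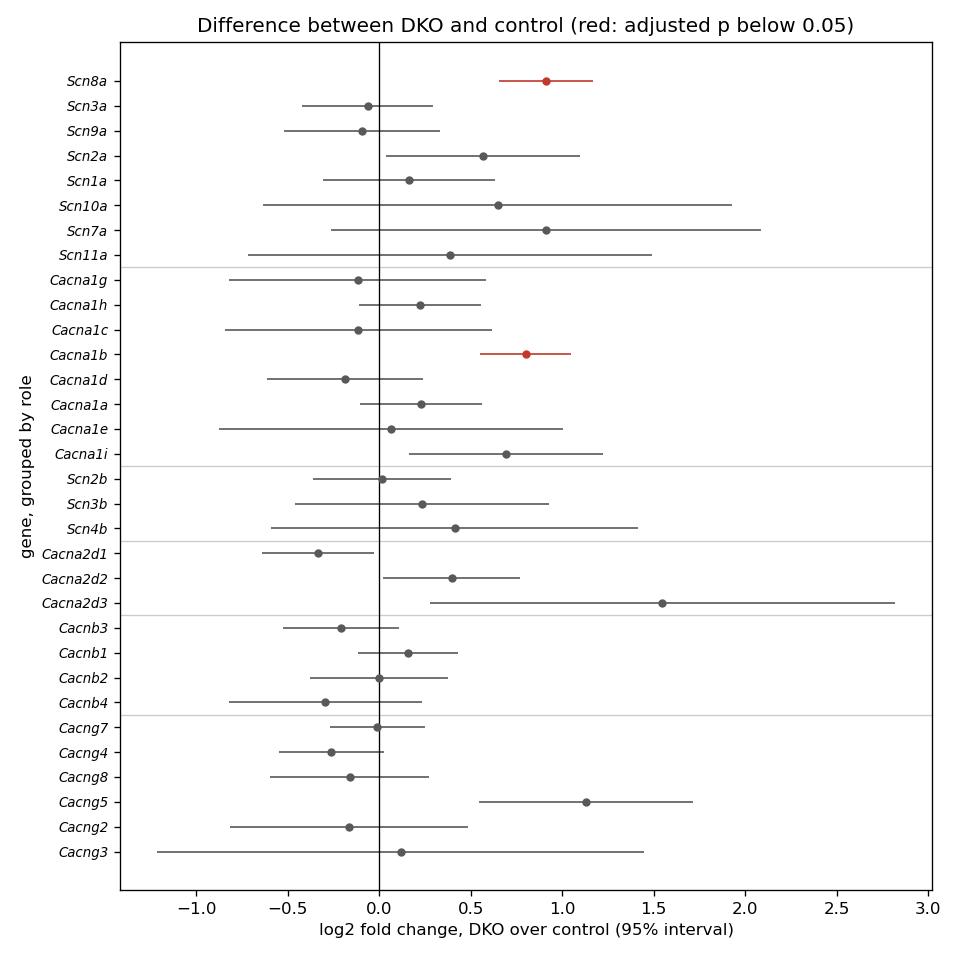
Log2 fold change, DKO over control, of 32 of the 34 tested channel genes with its 95% interval, grouped by role from sodium α at the top to calcium γ at the bottom. Scn8a and Cacna1b, in red, are the genes past the threshold, at 0.91 and 0.80, and the widest intervals belong to low or variable genes such as Cacng3 and Cacna2d3.

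Among sodium channel α genes, Scn8a rose and the other 8 tested genes did not pass the test. Scn8a (chromosome 15, 100869863 to 101045938, GRCm38) encodes the main sodium channel of the axon initial segment and nodes of Ranvier in mature neurons. The DKO libraries, in the order of their replicate numbers, measured 53.9, 64.3 and 56.0 CPM, and the control libraries 34.7, 30.6 and 27.2 CPM. Values of single libraries are given in that order throughout. Every DKO library lay above every control library. The log2 fold change was 0.91 (SE 0.11; edgeR adjusted p = 0.00577), a 1.88-fold rise with a 95% interval of 1.57 to 2.24. With any 1 of the 6 libraries left out the gene was still called (0.83 to 1.01; adjusted p between 0.00759 and 0.0367). A test against a 1.5-fold change did not call it (adjusted p = 0.139). The neuron markers did not rise with it. Of the 15, 0 were called higher by edgeR and 1 lower, the sensory neuron factor Pou4f1 (log2 fold change -0.45, adjusted p = 0.0306), and 14 of the 15 had a negative log2 fold change. At an unadjusted p below 0.05, 0 neuron markers were higher and 5 lower. Over all tested genes, 11% were higher and 9.89% lower by that rule, and edgeR called 2.19% higher and 0.818% lower. The part of neurons in the level of Scn8a was not tested.

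The stretch before a start of Scn8a in the RefSeq promoter table is shown because the gene was called and this start is rich in CpG. Histone methylation was not measured in these libraries. RefSeq (GRCm38.p6) gives chr15:100870395-100870644 on the plus strand, with CpG in capitals. It lies inside the RefSeq span of the gene, which begins farther upstream, and in no GENCODE M21 exon of it.
Scn8a: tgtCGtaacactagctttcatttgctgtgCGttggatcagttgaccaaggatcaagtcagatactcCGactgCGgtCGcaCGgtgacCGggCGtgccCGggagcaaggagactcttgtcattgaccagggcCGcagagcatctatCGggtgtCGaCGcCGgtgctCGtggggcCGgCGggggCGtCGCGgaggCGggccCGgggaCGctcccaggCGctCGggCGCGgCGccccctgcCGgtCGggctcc
The 300-base window around this start holds 38 CpG, more than 95.05% of the 32851 windows in the table, whose median is 7. A further start of Scn8a, inside the gene, has 12.

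Other abundant sodium channel genes did not pass the test. Scn3a, the channel typical of embryonic neurons, measured 19.7, 22.7 and 23.8 CPM in DKO and 27.4, 18.04 and 23.5 CPM in control libraries. The groups overlapped, with a log2 fold change of -0.06 (95% interval -0.42 to 0.30; edgeR adjusted p = 0.863), and 0.01 with scaling by library size only. Per kb, Scn8a and Scn3a overlapped in control libraries, at 1.73 to 2.20 and 1.45 to 2.20 CPM per kb. In DKO libraries they separated, at 3.42 to 4.08 CPM per kb for Scn8a and 1.58 to 1.91 CPM per kb for Scn3a. Scn9a, a channel of nociceptors and sympathetic neurons, measured 6.63, 9.02 and 8.87 CPM against 9.89, 6.999 and 9.20 CPM, and did not pass the test (adjusted p = 0.821). Scn2a, a channel of excitatory neurons, separated the groups, with 7.33 to 7.81 CPM in DKO against 3.32 to 6.35 CPM in controls, and had a log2 fold change of 0.57 that was not called (adjusted p = 0.215). Scn1a, Scn10a, Scn7a and Scn11a, the last 3 of peripheral sensory neurons or glia, had log2 fold changes of 0.16, 0.65, 0.91 and 0.39 and adjusted p between 0.343 and 0.694. For Scn10a the spread in DKO was wide, from 1.45 CPM in replicate 3 to 6.05 CPM in replicate 2.

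Within the sodium α family, the share of Scn8a was larger in every DKO library. Of the summed level per kb, Scn8a held 41.7%, 43.3% and 43.6% in the DKO libraries, against 27.0%, 31.6% and 26.7% in the controls. Scn3a held 19.3% to 23.5% in DKO and 23.5% to 29.1% in control libraries. A share falls when another gene's level rises, so the smaller share of Scn3a is no separate result. The summed level of the sodium α genes was 106 to 122.9 CPM in DKO and 76.5 to 100.4 CPM in control libraries.

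**Figure D3:**
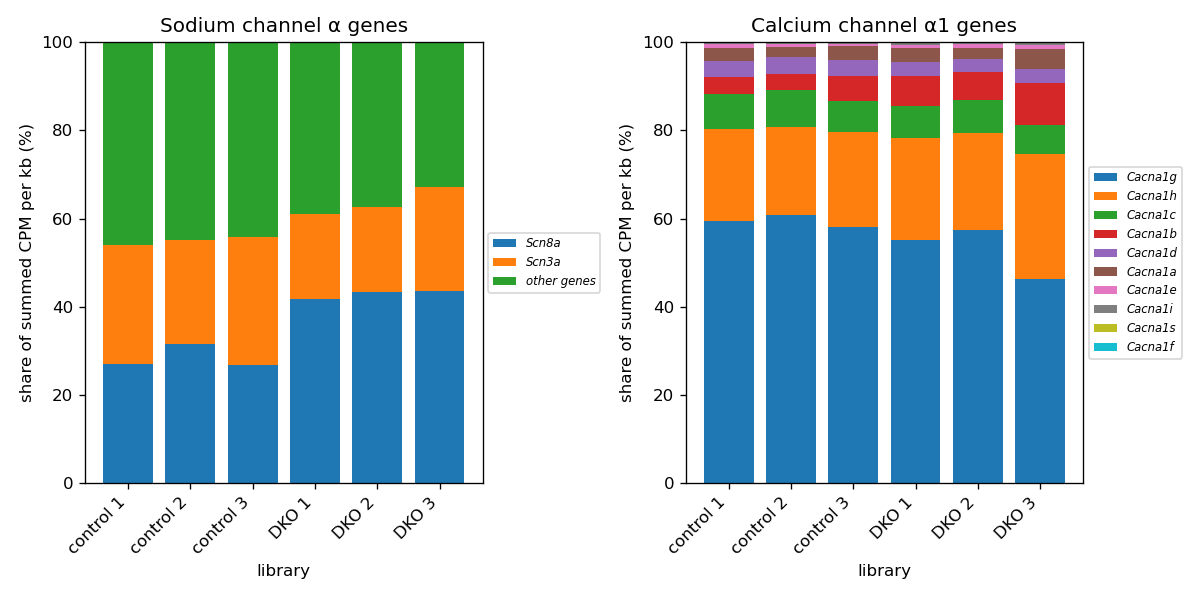
Share of each gene in the summed CPM per kb of its family, as stacked bars that reach 100%, for sodium α genes on the left, with those other than Scn8a and Scn3a summed, and calcium α1 genes on the right, in 3 control and 3 DKO libraries. Scn8a holds 26.7% to 31.6% of the sodium α level in control and 41.7% to 43.6% in DKO libraries, and Cacna1g and Cacna1h fill most of every calcium bar.

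Among calcium channel α1 genes, Cacna1b rose and the other 7 tested genes did not pass the test. Cacna1b encodes the pore of the N-type channel, which triggers transmitter release at nerve endings. It measured 40.9, 46.2 and 40.0 CPM in DKO and 25.9, 21.2 and 25.8 CPM in control libraries. The groups did not overlap, and within each group the libraries lay close together. The log2 fold change was 0.80 (SE 0.11; edgeR adjusted p = 0.00857), a 1.74-fold rise with a 95% interval of 1.47 to 2.07. It was also called with any 1 library left out (0.72 to 0.86; adjusted p between 0.00913 and 0.0388), and was not called against a 1.5-fold change (adjusted p = 0.399). Its share of the calcium α1 level per kb was 6.32% to 9.54% in DKO and 3.64% to 5.56% in control libraries.

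Cacna1b is the channel gene next to a gene that was itself targeted. It lies on chromosome 2 from 24603860 to 24763200 (GRCm38), and Ehmt1 lies from 24790769 to 24919643, so 27.6 kb separate them. Both are on the minus strand, with the start of Cacna1b facing the end of Ehmt1. The bases just before the Cacna1b span, shown because they lie in that gap, are chr2:24763201-24763402 on the minus strand (RefSeq, GRCm38.p6), with CpG in capitals.
Cacna1b: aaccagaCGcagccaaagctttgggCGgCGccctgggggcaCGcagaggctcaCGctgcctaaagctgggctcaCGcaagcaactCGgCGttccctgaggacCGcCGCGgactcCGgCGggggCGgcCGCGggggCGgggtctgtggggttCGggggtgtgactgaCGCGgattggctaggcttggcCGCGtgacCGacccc
The 300-base window around the listed start holds 35 CpG, more than 93.0% of all windows.

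Within 100 kb of Ehmt1, 6 genes were tested and Cacna1b was the 1 called. The other genes there were Arrdc1, with a log2 fold change of -0.78 (adjusted p = 0.142), and Zmynd19, Dph7, Mrpl41 and Pnpla7, with values from -0.03 to 0.12. Within 500 kb, 3 of 26 tested genes were called higher, namely Cacna1b, Entpd2 (2.22, SE 0.36, adjusted p = 0.0176) and Npdc1 (0.88, SE 0.13, adjusted p = 0.0126), and within 3 Mb 4 of 86 were called higher and 1 lower. Around Ehmt2, 4 of 142 tested genes within 3 Mb were called higher (2.82%). Over all tested genes the shares were 2.19% higher and 0.818% lower. These neighbours were chosen for naming after their values were seen. Every DKO library carried the floxed Ehmt1 allele and every control library the unfloxed one. A difference tied to that stretch of chromosome 2 and one that follows from loss of the enzymes therefore cannot be told apart for Cacna1b. Scn8a lies on another chromosome than either targeted gene. Of the other channel genes on chromosome 2, Cacnb2 is the nearest to Ehmt1, at 9.8 Mb, and Cacna1h lies 9.46 Mb from Ehmt2 on chromosome 17.

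**Figure D4:**
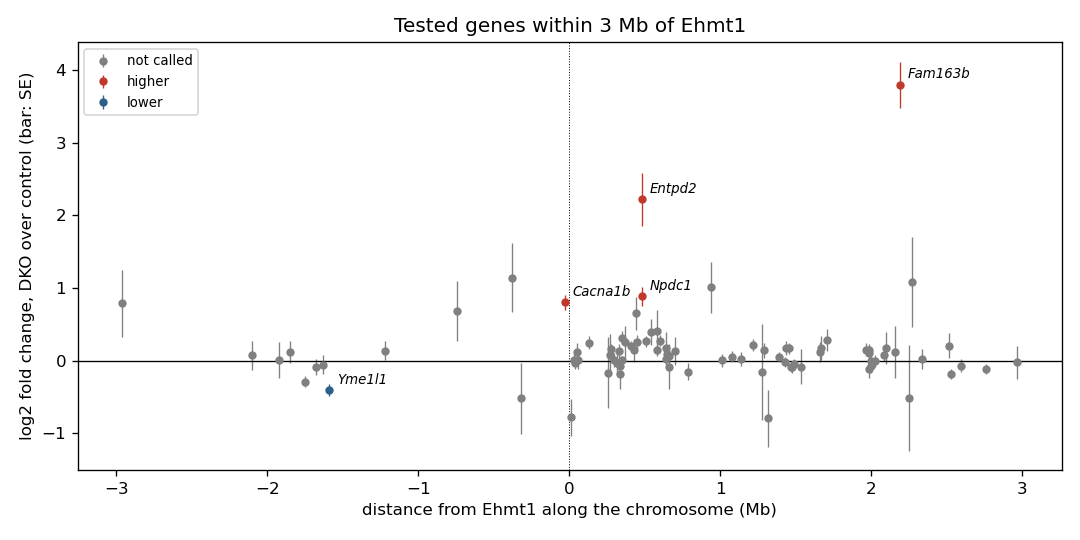
Log2 fold change, DKO over control, with its SE, of the 86 tested genes within 3 Mb of Ehmt1, against the distance from Ehmt1 in Mb. Cacna1b stands next to the dotted line that marks Ehmt1, at 0.80, with Arrdc1 at -0.78 as the gene closest to Ehmt1. Entpd2, Npdc1 and Fam163b, in red, are the other genes called higher and Yme1l1, in blue, the gene called lower.

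The abundant calcium channel pore genes varied between libraries more than between groups. Cacna1g measured 333, 427 and 198 CPM in DKO and 404, 360.5 and 275 CPM in control libraries. DKO held both the highest and the lowest library, and the log2 fold change was -0.12 (95% interval -0.82 to 0.59; edgeR adjusted p = 0.860). That interval runs from 0.566-fold to 1.5-fold, so changes in that range are not excluded at this spread. Cacna1h measured 134, 158 and 117 CPM against 137, 114 and 98.7 CPM (0.22, 95% interval -0.11 to 0.56; adjusted p = 0.411). Cacna1c, the L-type channel of heart and smooth muscle, measured 92.1, 116 and 57.2 CPM against 115, 103 and 69.4 CPM (-0.11, 95% interval -0.84 to 0.61; adjusted p = 0.870). For Cacna1g and Cacna1c replicate 3 was the lowest library of its group in both groups, and without DKO replicate 3 both log2 fold changes turned positive, to 0.13 and 0.12. The summed crest mesenchyme markers were likewise lowest in replicate 3 of each group, with 1875 CPM for DKO and 2150 CPM for control, and their part in these values was not tested. Cacna1i, the least abundant T-type gene, separated the groups, with 2.57 to 3.21 CPM in DKO against 1.47 to 2.19 CPM in controls, and had a log2 fold change of 0.69 that was not called (adjusted p = 0.1503). Cacna1d (L-type), Cacna1a (P/Q-type) and Cacna1e (R-type) had log2 fold changes of -0.19, 0.23 and 0.06 and adjusted p between 0.406 and 0.947.

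Of the 17 auxiliary genes tested, edgeR called 0 in either direction, and 3 were higher and 1 lower at an unadjusted p below 0.05. Among the α2δ genes, whose extracellular subunits carry channels to the membrane and bind gabapentin-type drugs in the case of the first pair, the directions differed. Cacna2d3 measured 15.7, 25.2 and 6.82 CPM in DKO and 7.72, 3.32 and 5.09 CPM in control libraries. Replicates 1 and 2 of DKO were above all controls, while replicate 3 lay among them. The log2 fold change was 1.55 (SE 0.52; edgeR adjusted p = 0.174), and without DKO replicate 3 it was 1.92 (adjusted p = 0.0300). Cacna2d2 separated the groups, with 31.3 to 38.2 CPM in DKO against 19.7 to 30.7 CPM in controls (0.40; adjusted p = 0.218). Cacna2d1 was the 1 gene whose DKO libraries all lay below the controls, with 31.6, 37.5 and 35.9 CPM against 53.0, 38.2 and 40.9 CPM, and a log2 fold change of -0.33 that was not called (adjusted p = 0.205).

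The calcium β and γ genes held 10 tested members with log2 fold changes from -0.29 to 1.13. Cacnb3 measured 96.9, 112 and 76.9 CPM in DKO and 122, 107 and 100.8 CPM in control libraries, and overlapped (-0.21, 95% interval -0.52 to 0.11; adjusted p = 0.421). Cacng7 measured 107, 116 and 112 CPM against 113, 131 and 94.3 CPM, with a log2 fold change of -0.01 (95% interval -0.27 to 0.25; adjusted p = 0.974), and 0.07 with scaling by library size only. Cacng4 measured 63.7, 71.8 and 57.9 CPM against 83.6, 63.9 and 84.2 CPM, a log2 fold change of -0.26 (adjusted p = 0.272), with overlap in DKO replicate 2. Cacng5, a γ subunit gene that neighbours Cacng4, was just outside the threshold. It measured 2.59, 2.92 and 2.39 CPM in DKO and 1.01, 1.03 and 1.57 CPM in control libraries, without overlap, a log2 fold change of 1.13 (SE 0.26; adjusted p = 0.0569). It was called by DESeq2 (1.13, adjusted p = 0.0127), with scaling by library size only (adjusted p = 0.0459) and without DKO replicate 3 (adjusted p = 0.0445). The other β genes, Cacnb1, Cacnb2 and Cacnb4, had 0.16, 0.0001 and -0.29, and the other γ genes Cacng8, Cacng2 and Cacng3 had -0.16, -0.16 and 0.12, all with adjusted p of at least 0.485.

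The 4 sodium channel β genes, which encode single-pass subunits with an immunoglobulin fold, all had positive log2 fold changes and 0 were called. Scn2b and Scn3b, the more abundant, had 17.8 to 19.9 CPM and 7.29 to 12.1 CPM in DKO against 13.7 to 21.4 CPM and 4.67 to 9.71 CPM in control libraries. Their log2 fold changes were 0.02 and 0.23 (edgeR adjusted p = 0.971 and 0.704), and that of Scn4b, at most 0.314 CPM in every library, was 0.41 (adjusted p = 0.631). At an unadjusted p below 0.05 none of these was called either. The sign of Scn2b turned without DKO replicate 2 (-0.029) or control replicate 3 (-0.16), and that of Scn3b without DKO replicate 2 (-0.032) or control replicate 2 (-0.012).

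**Figure D5:**
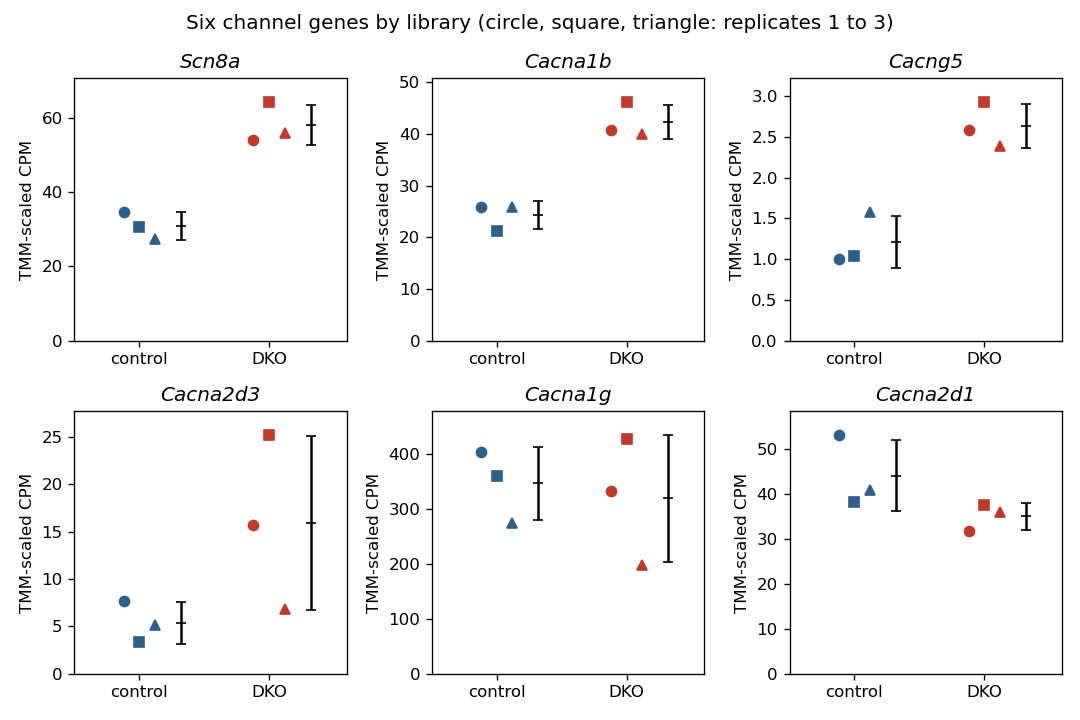
TMM-scaled CPM of Scn8a, Cacna1b, Cacng5, Cacna2d3, Cacna1g and Cacna2d1 in each library on axes that start at 0, with circles, squares and triangles for replicates 1 to 3 and black bars for the mean and SD (n = 3 each). DKO lies above control without overlap for Scn8a, Cacna1b and Cacng5, DKO replicate 3 falls among the controls for Cacna2d3, the groups overlap for Cacna1g, and DKO lies below control for Cacna2d1.

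The 6 channel genes that did not pass the filter were Scn4a, Cacna1s, Cacng1, Cacng6, Cacna2d4 and Cacna1f. Scn4a, Cacna1s and Cacng1, the pore and γ subunits of skeletal muscle channels, had 21, 12 and 8 counts over the 3 DKO libraries and 22, 7 and 13 over the 3 control libraries. Cacng6 had 3 and 2 counts. Cacna2d4 had 13 counts in DKO and 1 in control libraries. Cacna1f, a retinal L-type pore gene, had 5 counts in DKO and 0 in control libraries, which allows up to 3 counts or 0.0312 CPM over the group. Scn4a, Cacna1s and Cacng1 stayed at 0.269 CPM or below in every library. The 15 skeletal muscle markers summed to 16.4 to 19.6 CPM in DKO and 7.45 to 9.60 CPM in control libraries. Of these markers, 3 of 10 tested were called higher, namely Tnnt3, Neb and Myl1. Over all tested genes, 2.19% were called higher and 0.818% lower, a share that stands beside each marker count here. The 13 cardiac markers summed to 26.1 to 33.1 CPM and 16.8 to 23.5 CPM, with 2 of 7 tested called higher, Myh6 and Myh7, and Pln at 0 counts. Most of the cardiac sum was Hcn4, at 23.6 CPM in DKO and 17.3 CPM in controls, which was not called (adjusted p = 0.175) and was picked out after its values were seen. The skeletal muscle regulators Myod1 and Myog, which define that fate, were at most 0.835 CPM in every library. Endothelial markers summed to 36.3 to 39.5 CPM in DKO against 22.5 to 25.8 CPM in control libraries. Tie1 was the 1 called of 8, at 8.05 CPM against 0.965 CPM. All 8 had a positive log2 fold change, where 48.8% of all tested genes did. Between groups, 3 of the 8 separated higher and 5 overlapped, where 14.5% of all tested genes separated higher. Smooth muscle markers were at 105 to 122 CPM against 86.0 to 91.5 CPM, with Actg2 the 1 called of 8. Of the 5 melanocyte markers tested, Tyr was called higher, while 2 had a positive and 3 a negative log2 fold change. The sums of the melanocyte markers overlapped, at 50.4 to 68.7 CPM in DKO and 60.4 to 61.9 CPM in control libraries. Schwann precursor, epithelial, erythroid and immune markers gave 0 calls by edgeR. At an unadjusted p below 0.05, 1 of them was higher and 3 lower, where 11% and 9.89% of all tested genes were. The part of any of these cells in the channel levels was not tested.

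Some channel genes lie next to each other, and neither Scn8a nor Cacna1b lies in such a cluster. The 5 sodium α genes Scn3a, Scn2a, Scn1a, Scn9a and Scn7a lie within 1.33 Mb on chromosome 2 (65457118 to 66784910), and their log2 fold changes ran from -0.09 to 0.91. On chromosome 11, Cacng4 and Cacng5 lie within 211.8 kb together with Cacng1 and stood at -0.26 and 1.13. The signs were alike for Cacng7 and Cacng8 on chromosome 7, at -0.01 and -0.16, and for Scn2b and Scn4b on chromosome 9, at 0.02 and 0.41. The signs of Cacng7 and Scn2b turned under other settings or with 1 library left out, so that likeness says little. No gene of these clusters was called. Differences between neighbours were not tested.

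A list of channel partners and of some other channels gave 4 calls, all higher. The list holds 50 symbols, of which 47 were in the table and 41 were tested. Some, such as Nalcn, Unc80, Tpcn1 and Hvcn1, belong to separate channels, so the count is not one of sodium and calcium channel partners alone. Of the 41, 4 were called higher (9.76%) and 0 lower, where 2.19% and 0.818% of all tested genes were. The list was chosen with earlier results of these data known, so this share is not independent of the values. A count this small does not set the list apart from other genes. At an unadjusted p below 0.05, 10 were higher and 5 lower, where 11% and 9.89% of all genes were. DESeq2 called 6 higher and 2 lower, beside 4.29% and 3.31% of all genes, and limma-voom 4 and 0, beside 1.96% and 0.715%. Without 1 library the number called higher was 1 to 4. A test against a 1.5-fold change did not call any of the 4 genes that edgeR called. Unc80, a scaffold of the NALCN sodium leak channel, measured 4.88, 6.56 and 5.10 CPM in DKO and 1.52, 0.808 and 1.95 CPM in control libraries, without overlap. Its log2 fold change was 1.93 (SE 0.31; edgeR adjusted p = 0.0160), and the call ended without DKO replicate 1 or control replicate 1. The other parts of that complex had smaller positive values and were not called, namely Unc79 (0.79, adjusted p = 0.0808), Fam155a (0.72, adjusted p = 0.132) and Nalcn (0.48, adjusted p = 0.193). Ryr3, a release channel of the internal calcium store, measured 5.39, 7.26 and 8.11 CPM against 3.02, 2.29 and 2.29 CPM, a log2 fold change of 1.44 (SE 0.22; adjusted p = 0.0142), a call that ended without control replicate 2 or 3. Rims2, a scaffold of the presynaptic active zone that binds calcium channels, measured 26.9, 33.2 and 36.6 CPM against 15.5, 10.9 and 19.0 CPM (1.09, SE 0.20; adjusted p = 0.0339). Its call ended without DKO replicate 1 or 2 or control replicate 1 or 2. Jph2, which ties the surface membrane to the calcium store, measured 7.79, 8.61 and 7.64 CPM against 4.59, 4.94 and 5.09 CPM (0.72, SE 0.14; adjusted p = 0.0382), and its call ended without any 1 library other than DKO replicate 3. The 4 partners with the most CPM, a measure that also grows with transcript length, were the sodium channel anchors Ank3 and Ank2, the kinase gene Camk2g and Nedd4l, a ubiquitin ligase of sodium channels. Per kb of exons their order differs, with Camk2g at 14.4 CPM per kb for DKO and 14.3 for controls, and Ank3 at 3.61 and 4.49. The log2 fold change of Ank3 was -0.32 (adjusted p = 0.0813), with Ank2 at -0.18, Camk2g at 0.01 and Nedd4l at -0.03.

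Of the 41 promoter windows that RefSeq lists for 30 of the channel genes, 0 held CACGTG on either strand, against 7.15% of the 32851 windows, 1 held TTCCCGCC (Cacng7, against 2.19%), and 0 held TTCAGCACC (against 0.371%). GGACAG was held by 7 of the 41, against 22.2% of all windows, and its 6 genes were Cacnb1, Cacnb3, Cacng5, Cacng6, Cacng8 and Scn8a, the last in its start inside the gene. These are the letters of an E-box, an E2F site and the left and right arms of a REST site. A match is no sign of binding, and a window without them says nothing about the factors.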

How the data were processed

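The deposited file holds raw counts per gene symbol for 6 libraries, with no normalization by the authors. The submitters' processing notes name mm10 with STAR 2.7.10a, Trim Galore and Picard, in no stated order. How reads were counted, with which annotation and strand setting, is not given in the sources used here. Paralogs, and 11 channel genes with an exon that overlaps another gene in GENCODE M21 (Cacna1d and Cacna1h with counted genes), are therefore uncertain to that extent.

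Counts were tested with edgeR 4.0.16 (R 4.3.3). Genes were kept by filterByExpr (minimum count 10, minimum total 15), scaled by TMM and fitted by robust quasi-likelihood with group as the only term, with Benjamini-Hochberg adjustment over all 14555 tested genes. An SE is the log2 fold change divided by the root of F. The test was checked on simulated counts. Alternatives used RLE, library size, DESeq2 1.42.0, limma-voom (limma 3.58.1), other filters, a replicate block, a 1.5-fold threshold and each library left out. The channel genes, the partner and marker lists and the rule for named genes (called genes and the 4 most abundant of each role in full; called partners; called markers) were chosen with earlier results of these data known. Genes given beyond that rule include Cacna2d3 and Cacng5, in full, and the uncalled partners Unc79, Fam155a, Nalcn and Stac2. These were picked with their values known. Positions and promoters are from RefSeq, which matched all 40 genes. Protein sequences were not used here. For 2 of the channel genes no single value is reported here, although they are in the counts.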

Additional observations from a re-analysis of the deposited data

How the results depend on the processing

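The calls of Scn8a and Cacna1b held under every alternative run except the test against a 1.5-fold change, which left 0 channel genes and 0 pore-forming genes called higher. Channel genes called higher numbered 2 to 4 without 1 library, with auxiliary genes 0 to 2, and 1 auxiliary gene, Cacng5, with DESeq2 and with library size only. Over all genes the 319 higher and 119 lower calls became 624 and 482 with DESeq2 and 104 and 18 against 1.5-fold. Without 1 library they ran from 110 to 597 higher and from 21 to 509 lower. With a replicate block the lower calls over all genes were 196 and the channel genes called were Scn8a and Cacna1b. The replicate numbers are shared by the groups, but the labels state no pairing, so the numbers were not taken to pair libraries. Same-numbered libraries correlated at -0.03, 0.00022 and 0.44 in their deviations from the group mean. DKO replicate 2 followed control replicate 1 (0.53). Deviations within a group of 3 sum to 0 for each gene, so these correlations cannot decide whether the numbers pair libraries. Signs turned for 11 of the 34 channel genes, none of them called. Cacnb2 was -0.00020 with RLE, -0.0043 with DESeq2, -0.018 with limma-voom and -0.0050 without a filter. Cacng7 was 0.071 with library size only, 0.0054 with limma-voom, 0.0068 with at least 1 CPM in 3 libraries and 0.0012 with the replicate block, and Scn3a was 0.013 with library size only. Leaving out 1 library gave ranges of -0.36 to 0.12 for Cacna1c, -0.25 to 0.52 for Cacna1e, -0.39 to 0.13 for Cacna1g, -0.073 to 0.16 for Cacnb2, -0.34 to 0.048 for Cacng2, -0.26 to 0.49 for Cacng3, -0.12 to 0.12 for Cacng7, -0.16 to 0.14 for Scn2b, -0.20 to 0.095 for Scn3a, -0.032 to 0.45 for Scn3b and -0.21 to 0.037 for Scn9a. The cause was not tested. The median of the auxiliary genes ran from -0.073 to 0.16 without 1 library, and that of the pore-forming genes from 0.08 to 0.37. With 3 libraries a group, wide spreads such as those of Cacna1g and Cacna2d3 limit what could be called.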

Other observations

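Channel levels differed between the libraries within each group. Of the 34 tested channel genes, DKO replicate 2 was the highest DKO library for 22 and DKO replicate 3 the lowest for 20. Among controls, replicate 1 was the highest for 26. How often each library was highest or lowest over all tested genes was not counted, so this order cannot be read as a trait of the channel genes. The summed level of all 40 channel genes was 1192, 1428 and 969.9 CPM in the DKO libraries, in the order of their replicate numbers, and 1352, 1166 and 1017 CPM in the controls, so the groups overlapped. The erythroid markers, which a sort for TdTomato should remove, summed to 14.4, 44.7 and 231 CPM in DKO and 132, 73.1 and 120.4 CPM in control libraries, and their part in these values was not tested.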
